A study of Mus musculus with 12 samples.

Results

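Tuft cells are rare chemosensory cells of the gut epithelium, and 7 genes that mark them were followed in total colon: Dclk1, Trpm5, Pou2f3, Sh2d6, Gnat3, Avil and Gfi1b. They were taken by symbol from a list of tuft markers, and all 7 were found among the 30263 genes of the colon tables. The tables from sorted CD8+ T cells listed 357 genes and none of the 7, so every value below is from colon. The colons came from C57BL/6 mice labelled S1PR4 KO (3 libraries) or WT (3 libraries), and both groups had received azoxymethane (AOM, a carcinogen, 10 mg/kg) and 0.5% dextran sulfate sodium (DSS), an agent that damages the epithelium of the colon. AOM was given at day 0 and DSS on days 1 to 6, 21 to 27 and 47 to 52. Tissue was taken at day 84 of this model of colitis-associated tumors. The receptor S1PR4, which binds sphingosine 1-phosphate, is made chiefly by leukocytes. The labels give neither the age nor the sex of the mice, do not describe how the allele was made, and do not say whether each library came from a separate animal, so p-values measure only the spread between these libraries.

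Tuft cells sense luminal contents with a cascade shared with taste cells. G proteins such as gustducin act on phospholipase C and calcium release, which opens the channel TRPM5. In response they release interleukin 25, leukotrienes and acetylcholine, and interleukin 25 acts on type 2 innate lymphoid cells, whose interleukin 13 in turn drives the epithelium to make more tuft and goblet cells. The transcription factor POU2F3 is required for the lineage. In bulk tissue, fewer cells of a type and less RNA per cell cannot be told apart.

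The targeted gene went against the labels. S1pr4 had 154, 162 and 118 reads in the libraries labelled KO, against 61, 47 and 25 reads in those labelled WT, so KO and WT refer here to what a library is labelled, and each direction given is only as sound as the labels. The log2 difference of S1pr4 was 1.78 ± 0.34 (SE, n = 3 each), with an adjusted p of 0.829 in edgeR's test and of 0.0059 in DESeq2's. Reads per gene do not show whether a deleted part of S1pr4 was covered. Total counts per library ran from 7304082 to 8652561. KO replicates 2 and 3 and WT replicate 1 held Xist, the transcript that silences the inactive X chromosome, at 515 to 591 CPM (read counts brought to a common library size), and the other 3 libraries held it at no more than 6.75 CPM while reading 63.3 to 81.1 CPM for Ddx3y, a Y-linked gene. KO replicate 1 was thus the only KO library high in Ddx3y, and WT replicate 1 the only WT library high in Xist. The list of squamous and skeletal muscle markers summed to 517 CPM in WT replicate 1, mostly from keratins, against 38.2 to 70.0 CPM in the other 5 libraries. Its skeletal actin gene Acta1 had 12.3, 17.9 and 11.2 CPM in KO replicates 1, 2 and 3, against 38.9, 33.8 and 42.4 CPM in WT replicates 1, 2 and 3.

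All 7 tuft cell genes had a higher mean level in KO than in WT colons, but the groups overlapped for each of them and none passed the test. The 7 genes summed to 102, 195 and 249 CPM in KO replicates 1, 2 and 3, against 90.4, 135 and 90.9 CPM in WT replicates 1, 2 and 3. The difference lay in KO replicates 2 and 3, which were the 2 highest libraries for 5 of the 7 genes, while KO replicate 1 lay between the lowest and the highest WT library for 5 of the 7. Among all 17195 genes tested, 49% had a higher fitted level in KO.

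Of the 7 genes, 6 passed the filter on low counts and were tested. Gfi1b did not. EdgeR's quasi-likelihood test with Benjamini-Hochberg adjustment over all tested genes called 0 of the 6 (adjusted p = 0.829 to 0.836), where it called 0 of 17195 genes (0%). At an unadjusted p under 0.05 it held 0 of the 6, where 5.06% of all genes passed. DESeq2 called 0 of the 6 after adjustment, where it called 0.105% of genes, and limma-voom called 0 of the 6, where it called 0%. Without adjustment they held 2 and 4 of the 6, where 5.35% and 24.1% of all genes passed. For 0 of the 6 genes did the groups separate, where 9.58% of all tested genes had groups that did not overlap. The median log2 difference of the 6 tested genes was 1.07, and that of all tested genes was -0.0045.

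The start regions of 3 genes are shown as examples of 3 library profiles given below: Trpm5 stands for 4 genes with WT replicate 1 lowest and KO replicates 2 and 3 highest, Avil ran apart from them, and Dclk1 was nearly level and has 2 annotated starts that a gene count merges. Each window runs from 250 bases before to 50 bases after a RefSeq start (GRCm38.p6), 5′ to 3′ on the gene's own strand, and capitals mark the letters TGCAAA, the core of the octamer that POU factors bind, or their reverse complement TTTGCA.
Trpm5, chr7:143094593-143094892, minus strand: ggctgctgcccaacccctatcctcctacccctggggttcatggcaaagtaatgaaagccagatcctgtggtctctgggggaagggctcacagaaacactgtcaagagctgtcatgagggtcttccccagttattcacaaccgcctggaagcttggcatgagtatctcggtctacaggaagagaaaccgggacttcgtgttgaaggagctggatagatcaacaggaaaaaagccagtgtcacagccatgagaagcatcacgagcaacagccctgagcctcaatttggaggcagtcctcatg
Avil, chr10:127000459-127000758, plus strand: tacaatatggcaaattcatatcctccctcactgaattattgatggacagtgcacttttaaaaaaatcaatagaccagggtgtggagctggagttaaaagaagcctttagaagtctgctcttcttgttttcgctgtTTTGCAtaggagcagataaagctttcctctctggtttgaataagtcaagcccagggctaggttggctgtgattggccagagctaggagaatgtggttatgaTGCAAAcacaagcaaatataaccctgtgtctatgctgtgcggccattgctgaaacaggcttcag
Dclk1 first start, chr3:55242114-55242413, plus strand: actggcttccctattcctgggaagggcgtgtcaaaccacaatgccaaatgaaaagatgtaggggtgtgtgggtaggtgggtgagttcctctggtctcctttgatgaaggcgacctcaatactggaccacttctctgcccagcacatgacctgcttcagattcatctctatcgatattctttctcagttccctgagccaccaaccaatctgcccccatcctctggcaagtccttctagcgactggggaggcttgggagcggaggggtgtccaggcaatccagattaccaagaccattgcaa
Dclk1 second start, chr3:55461478-55461777, plus strand: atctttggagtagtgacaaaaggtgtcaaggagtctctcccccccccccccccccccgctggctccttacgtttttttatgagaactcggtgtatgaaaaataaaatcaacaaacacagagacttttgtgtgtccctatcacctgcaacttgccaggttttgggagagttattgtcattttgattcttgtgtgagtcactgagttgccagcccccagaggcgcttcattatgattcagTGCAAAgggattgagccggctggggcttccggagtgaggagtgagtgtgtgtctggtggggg

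A window was found for 6 of the 7 genes. The full octamer, ATGCAAAT on either strand, was in no window of the 6 genes and in 1.74% of all 32851 windows (570). Its core TGCAAA was in windows of Avil and Dclk1 and in 15.5% of all windows (5085). The Dclk1 starts, at positions 55242364 and 55461728 of chromosome 3, lie 219 kb apart, and only the second of these windows held the core. A match is a description of letters and not a binding site.

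The sensing and signalling genes came first in the order of roles. Trpm5 (ENSMUSG00000009246, GRCm38 chromosome 7, 143069153 to 143094642, minus strand) encodes the calcium-activated cation channel that depolarizes tuft and taste cells. It had 15.8, 31.7 and 42.6 CPM in KO replicates 1, 2 and 3, against 7.22, 30.0 and 14.9 CPM in WT replicates 1, 2 and 3. WT replicate 2 lay within the KO range and KO replicate 1 within the WT range. Trpm5 averaged 30.1 ± 13.5 CPM in KO and 17.4 ± 11.6 CPM in WT (SD, n = 3 each), a log2 difference of 0.79 ± 0.58 (SE), which did not pass edgeR's test (adjusted p = 0.836). Leaving out WT replicate 1 gave 0.44, leaving out KO replicate 3 gave 0.46, and leaving out WT replicate 2 gave 1.44.

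Gnat3 (ENSMUSG00000028777, chromosome 5, 17962549 to 18019834, plus strand) encodes the alpha subunit of gustducin, the G protein of the same cascade. It was read 14, 43 and 42 times in KO replicates 1, 2 and 3, against 4, 30 and 12 times in WT replicates 1, 2 and 3. On the CPM scale these were 1.79, 5.69 and 5.72 in KO and 0.473, 4.01 and 1.50 in WT. Its highest library stood 12.1-fold above its lowest, the widest range of the 7 genes, and it rests on few reads. The log2 difference was 1.15 ± 0.78 (SE, n = 3 each), not past edgeR's test (adjusted p = 0.830). It was 0.69 without WT replicate 1 and 2.14 without WT replicate 2.

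Sh2d6 (ENSMUSG00000052631, chromosome 6, 72513641 to 72521707, minus strand) encodes an SH2 domain protein used as a tuft cell marker. It had 5.74, 17.5 and 15.1 CPM in KO replicates 1, 2 and 3, against 2.60, 8.69 and 4.88 CPM in WT replicates 1, 2 and 3. KO replicates 2 and 3 stood above all WT libraries and KO replicate 1 did not. Sh2d6 averaged 12.8 ± 6.20 CPM in KO and 5.39 ± 3.08 CPM in WT (SD, n = 3 each), a log2 difference of 1.25 ± 0.57 (SE) with an adjusted p of 0.829 in edgeR's test.

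The transcription factors of the lineage were covered by few reads. Pou2f3 (ENSMUSG00000032015, chromosome 9, 43123939 to 43210369, minus strand), which encodes the POU factor that tuft cells need, was read 35, 64 and 74 times in KO replicates 1, 2 and 3, against 21, 39 and 31 times in WT replicates 1, 2 and 3. These are 4.47, 8.46 and 10.1 CPM in KO and 2.48, 5.22 and 3.88 CPM in WT. KO replicate 1 lay below WT replicate 2, so the groups overlapped by a single library. Pou2f3 averaged 7.67 ± 2.89 CPM in KO and 3.86 ± 1.37 CPM in WT (SD, n = 3 each), a log2 difference of 0.99 ± 0.41 (SE). Its unadjusted p of 0.0522 in edgeR's test was the smallest of the 6 genes tested, and its adjusted p was 0.829.

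Gfi1b (ENSMUSG00000026815, chromosome 2, 28609450 to 28621982, minus strand) encodes a transcriptional repressor of tuft cells and of the megakaryocyte and erythroid lineages. It was too low to test, with 7, 9 and 13 reads in KO replicates 1, 2 and 3, against 4, 9 and 3 reads in WT replicates 1, 2 and 3. That is 0.894, 1.19 and 1.77 CPM in KO and 0.473, 1.20 and 0.375 CPM in WT, mostly under the 1.30 CPM that the filter asks of at least 3 libraries. With no filter its log2 difference was 0.91 ± 0.56 (SE, adjusted p = 0.784 in edgeR's test). Markers of megakaryocytes and platelets, which could also carry Gfi1b, summed to 26.8, 28.0 and 18.5 CPM in KO and to 85.2, 20.5 and 25.1 CPM in WT. The high value of WT replicate 1 came from Ppbp, a platelet chemokine chosen after its values were seen, with 475 reads there. Among the tested markers of the list, Pf4 and Gp1bb were not highest in that library. Pf4 had 15.3 CPM there, against 18.0 CPM in KO replicate 1, and Gp1bb had 7.81 CPM, against 8.60 CPM in KO replicate 2. Itga2b was highest in WT replicate 1, at 5.44 CPM, against 5.16 CPM in KO replicate 2. The part of megakaryocytes and platelets in Gfi1b was not tested.

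The cytoskeletal genes behaved unlike the rest and unlike each other. Dclk1 (ENSMUSG00000027797, chromosome 3, 55242364 to 55539068, plus strand), a microtubule-associated kinase that marks tuft cells in the mouse gut and is also made by neurons, had 57.1, 54.1 and 74.9 CPM in KO replicates 1, 2 and 3, against 43.4, 56.0 and 48.1 CPM in WT replicates 1, 2 and 3. Its 6 libraries spanned a 1.73-fold range, the narrowest of the 7 genes, where the other 6 genes spanned 4.06-fold or more. WT replicate 2 exceeded KO replicate 2. Dclk1 averaged 62.0 ± 11.2 CPM in KO and 49.2 ± 6.38 CPM in WT (SD, n = 3 each), a log2 difference of 0.33 ± 0.16 (SE) with an adjusted p of 0.829 in edgeR's test, and of 0.18 without KO replicate 3. The neuron and glia list, whose cells also make Dclk1, summed to 274, 117 and 85.1 CPM in KO replicates 1, 2 and 3, against 266, 201 and 257 CPM in WT replicates 1, 2 and 3. This sum was lowest in KO replicate 3, where Dclk1 was highest. It was next lowest in KO replicate 2, where Dclk1 lay below WT replicate 2. The part of neurons and glia in the level of Dclk1 was not tested.

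Avil (ENSMUSG00000025432, chromosome 10, 127000709 to 127020994, plus strand), which encodes advillin, an actin-binding protein of the villin family found in tuft cell microvilli and in sensory neurons, had 16.0, 76.8 and 98.9 CPM in KO replicates 1, 2 and 3, against 33.7, 29.4 and 17.3 CPM in WT replicates 1, 2 and 3. KO replicates 2 and 3 held more than any WT library, whereas KO replicate 1 held the least of all 6. Avil averaged 63.9 ± 42.9 CPM in KO and 26.8 ± 8.54 CPM in WT (SD, n = 3 each), a log2 difference of 1.25 ± 0.64 (SE), not past edgeR's test (adjusted p = 0.829). That difference was 0.80 without KO replicate 3 and 0.46 with Xist status as a covariate. Avil lies 45.5 Mb from S1pr4 on the same chromosome. Its exons share 165 bases (4.86% of its exon length) with Tsfm on the opposite strand, a mitochondrial translation factor gene that averaged 45.2 CPM in KO and 44.0 CPM in WT. Trpm5 likewise shares 220 bases (3.44%) with Tssc4, and whether reads were counted by strand was not stated.

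**Figure D1:**
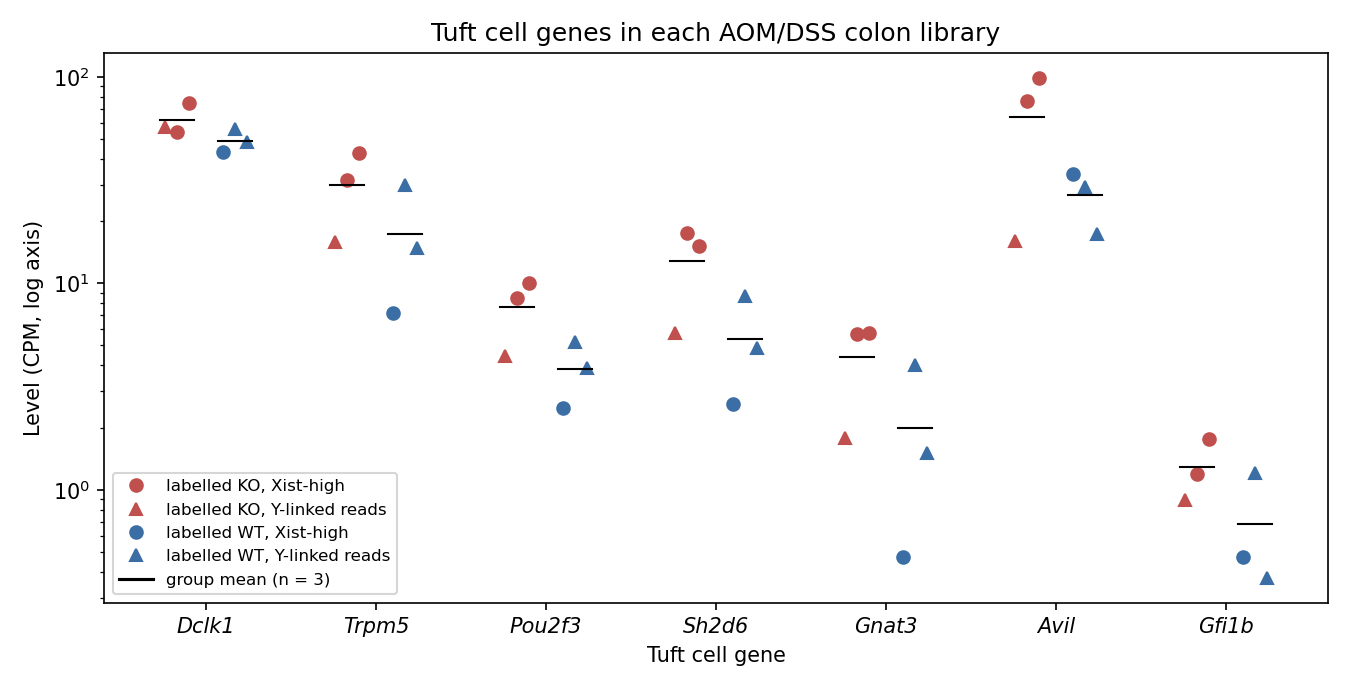
Level of the 7 tuft cell genes (CPM, log axis) in each colon library, with KO left of WT, 1 point per library, circles for Xist-high and triangles for Y-linked libraries, and black lines at group means (n = 3). KO replicates 2 and 3 (red circles) stand highest for Trpm5, Pou2f3, Sh2d6, Gnat3 and Avil, and KO replicate 1 (red triangle) stands among or below the WT libraries for these genes.

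Per kilobase of annotated exon, Avil had the highest mean level over the 6 libraries (13.3 ± 10.1 CPM per kb, SD), followed by Sh2d6 (5.37 ± 3.53), Trpm5 (3.71 ± 2.07), Dclk1 (3.64 ± 0.705), Gnat3 (2.35 ± 1.66), Pou2f3 (1.87 ± 0.941) and Gfi1b (0.538 ± 0.284). Avil exceeded Sh2d6 and Sh2d6 exceeded Trpm5 in each of the 6 libraries, and Pou2f3 exceeded Gfi1b in each of them. Trpm5 and Dclk1 could not be ordered, since Trpm5 was the higher in 3 of 6 libraries, and Gnat3 and Pou2f3 could not either, with Gnat3 higher in 3 of 6. Dclk1 exceeded Gnat3 in 5 of 6. No library had 0 reads for any of the 7 genes.

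The libraries ranked alike for Trpm5, Pou2f3, Sh2d6 and Gnat3, except that Sh2d6 was higher in KO replicate 2 than in KO replicate 3, and ranked differently for Avil. The lowest library was WT replicate 1 for these 4 genes and for Dclk1. Relative to its own mean over the 6 libraries, on the log2 CPM scale, WT replicate 1 stood at -1.46 for Trpm5, -0.99 for Pou2f3, -1.44 for Sh2d6 and -1.89 for Gnat3. Avil stood at -0.09 there and had its low values in KO replicate 1 (-1.15) and WT replicate 3 (-1.04). WT replicate 1, low in these 4 genes, is the library with the squamous keratins Krt1 and Krt5, at 94.5 and 125 CPM. Both were chosen after their values were seen, and every other library had at most 0.383 CPM of either. The epithelial list of WT replicate 1 summed to 1879 CPM, against 2060 to 2249 CPM in the other 5 libraries. The part of the tissue sampled in these values was not tested.

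**Figure D2:**
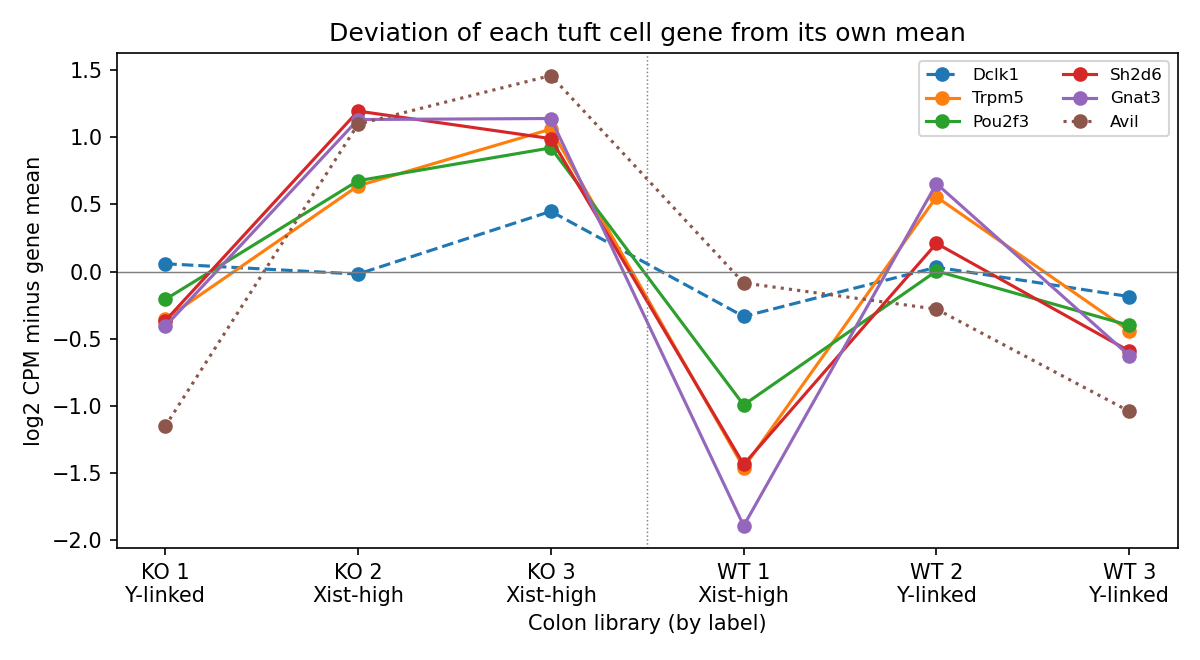
Deviation of each of the 6 tested tuft cell genes from its own mean (log2 CPM, y axis) in the 6 colon libraries, KO left of the dotted line and WT right of it. Trpm5, Pou2f3, Sh2d6 and Gnat3 (solid lines) dip together in WT replicate 1 (-0.99 to -1.89), Dclk1 (dashed) stays within 0.45 of its mean, and Avil (dotted) is lowest in KO replicate 1 (-1.15).

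The makeup of the set also differed between libraries. Avil supplied 15.7%, 39.3% and 39.7% of the reads of the 7 genes in KO replicates 1, 2 and 3, against 37.3%, 21.9% and 19.0% in WT replicates 1, 2 and 3. For each Trpm5 read there were 1.01, 2.42 and 2.32 Avil reads in KO replicates 1, 2 and 3, against 4.67, 0.982 and 1.16 in WT replicates 1, 2 and 3. Avil per Trpm5 read was thus above 2 in the 3 Xist-high libraries, whichever their label, and between 0.982 and 1.16 in the other 3. Pou2f3 kept nearer to Trpm5, with 0.282, 0.267 and 0.236 Pou2f3 reads per Trpm5 read in KO and 0.344, 0.174 and 0.261 in WT.

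Likeness between genes was measured as the root mean square difference of their centred log2 CPM values over the 6 colon libraries, among 14379 other named genes. The libraries share their depth and tissue makeup, and with 6 of them near matches are common, so these distances are descriptions. The nearest genes to Trpm5 were Dkkl1 (0.24), Bhlha15 (0.25) and Sh2d7 (0.25). Those nearest to Sh2d6 were Fyb2 (0.17), Eef1akmt3 (0.23) and Gnat3 (0.27), and those nearest to Gnat3 were Scgb1b3 (0.25), Ly6g6f (0.26) and Sh2d6 (0.27).

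Within the set, Sh2d6, Gnat3 and Pou2f3 ranked 8, 10 and 14 by nearness to Trpm5, while Dclk1 ranked 442 and Avil 4471. By nearness to Pou2f3, Trpm5 ranked 54, Sh2d6 58, Dclk1 494, Gnat3 1009 and Avil 6937. Pou2f3 was nearest to Etv5 (0.15), Upk1b (0.15) and Cenpk (0.15). Dclk1, with its small spread, was nearest to Ormdl1 (0.04), Ckap2l (0.05) and Kif20b (0.07), and Avil to Usp18 (0.13), Nanos1 (0.15) and Rem2 (0.16). Among the genes of the marker lists, the nearest to Avil were Nebl (0.47, rank 124 of 14379), which encodes an actin-binding protein and was itself listed as a tuft marker, and Lgr5 (0.50, rank 154), which marks stem cells at the crypt base. Axin2 of the crypt stem list (0.52, rank 174) and Cpa3 of the mast cell and basophil list (0.55, rank 201) came next. Lgr5 had 26.7, 72.6 and 101.7 CPM in KO replicates 1, 2 and 3, against 34.9, 16.0 and 11.8 CPM in WT replicates 1, 2 and 3.

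The differences were also taken within the Xist-high and the Y-linked libraries. Within the Xist-high libraries, KO replicates 2 and 3 minus WT replicate 1 gave log2 differences of 0.55 for Dclk1, 2.31 for Trpm5, 1.79 for Pou2f3, 2.53 for Sh2d6, 3.03 for Gnat3, 1.36 for Avil and 1.23 for Gfi1b. Within the Y-linked libraries, KO replicate 1 minus the mean of WT replicates 2 and 3 gave 0.14 for Dclk1, -0.41 for Trpm5, -0.01 for Pou2f3, -0.18 for Sh2d6, -0.42 for Gnat3, -0.49 for Avil and 0.26 for Gfi1b. So 7 of 7 genes were higher in KO within the first set and 2 of 7 within the second. Either set holds a single library of one label, so these differences have no test, and label and single library cannot be told apart within a set. In a fit over all 6 libraries with Xist status as a covariate, the log2 differences were 0.35 for Dclk1, 0.90 for Trpm5, 0.92 for Pou2f3, 1.16 for Sh2d6, 1.21 for Gnat3 and 0.46 for Avil.

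Other genes of the tuft cell program were read from 3 lists, and edgeR's test called none of their members. Of 8 further genes of taste-type signalling, 4 passed the filter, with 2 higher and 2 lower in KO, a median log2 difference of 0.11 (-0.10 without KO replicate 1) and 0 past the test. Rgs13, a regulator of G protein signalling that marks tuft cells, had 2.94, 8.33 and 17.6 CPM in KO replicates 1, 2 and 3, against 1.42, 5.62 and 4.001 CPM in WT replicates 1, 2 and 3, a log2 difference of 1.39 ± 0.75 (SE). Plcb2, the phospholipase of the cascade, differed by 0.44 ± 0.30, the calcium release channel gene Itpr3 by -0.22 ± 0.11 and the taste receptor gene Tas1r3 by -0.47 ± 0.31 (SE, log2). Gnb3, Gng13, Sucnr1 and Tas1r1 were too low to test, with at most 7 reads in any library.

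Of 7 genes for the mediators that tuft cells release, 6 passed the filter, with 2 higher and 4 lower in KO, a median of -0.02 (0.0027 when scaled to total counts only, and 0.15 without KO replicate 3) and 0 past the test. Alox5, the 5-lipoxygenase that starts leukotriene synthesis, had 12.9, 14.4 and 20.2 CPM in KO replicates 1, 2 and 3, against 6.03, 10.0 and 8.13 CPM in WT replicates 1, 2 and 3. Every KO library thus stood above every WT library for Alox5, as it did for 4.55% of all tested genes. Its log2 difference was 0.97 ± 0.28 (SE) with an adjusted p of 0.829 in edgeR's test, and its partner Alox5ap differed by 0.56 ± 0.25 (SE). Both are also made by leukocytes, whose list summed to 359, 260 and 210 CPM in KO and to 331, 272 and 181 CPM in WT, and the part of those cells was not tested. Ltc4s, Hpgds, Ptgs1 and Chat, for leukotriene, prostaglandin and acetylcholine synthesis, differed by -0.43 ± 0.31, -0.04 ± 0.22, -0.0047 ± 0.31 and -0.25 ± 0.25 (SE, log2). Il25, the cytokine by which tuft cells call type 2 lymphoid cells, was too low to test, with 1, 7 and 3 reads in KO replicates 1, 2 and 3, against 1, 1 and 1 in WT.

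Of 17.0 other tuft cell markers, all 17.0 passed the filter, with 14.0 higher and 3.0 lower in KO, a median of 0.33 and 0 past the test. Nebl had 11.9, 61.4 and 139 CPM in KO replicates 1, 2 and 3, against 31.7, 16.6 and 8.88 CPM in WT replicates 1, 2 and 3, and differed by 1.89 ± 0.89 (SE, log2). Matk, a tyrosine kinase gene, stood at 13.0, 18.5 and 15.4 CPM in KO and at 6.74, 12.4 and 6.88 CPM in WT, with no overlap and a log2 difference of 0.85 ± 0.30 (SE). Nrgn, which encodes neurogranin, had 2.43, 7.27 and 3.68 CPM in KO, against 2.25, 1.74 and 1.75 CPM in WT, also with no overlap, and differed by 1.21 ± 0.45 (SE, log2). Ly6g6f and Hmx2 differed by 0.76 ± 0.75 and 0.33 ± 0.59, and the surface receptor gene Siglecf by 0.49 ± 0.40 (SE, log2). Lrmp, Ly6g6d and Spib were the 3 with a negative difference, at -0.32 ± 0.29, -0.12 ± 0.21 and -0.02 ± 0.49 (SE, log2). Several genes of these lists, such as Spib and Lrmp, are also made by leukocytes.

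**Figure D3:**
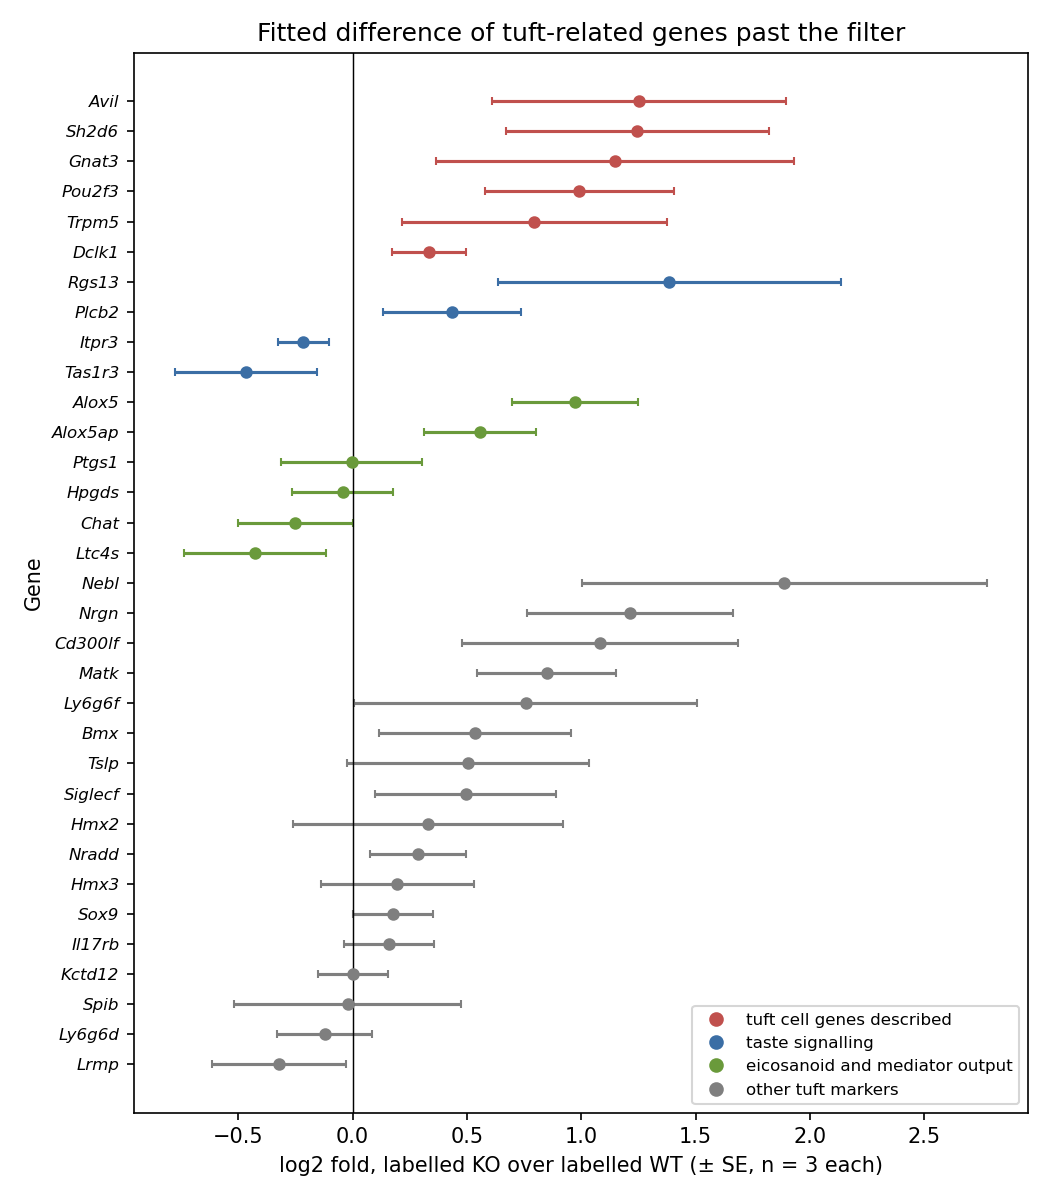
Fitted log2 fold, labelled KO over labelled WT, with its SE (n = 3 libraries each), for the tuft-related genes that passed the filter, grouped by list. The 6 tested genes of the set lie between 0.33 and 1.25, the mediator genes lie between -0.43 and 0.97, and no gene shown passed edgeR's test.

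The genes of the type 2 immune circuit around tuft cells were read at mixed depth. Of 11 genes, 9 passed the filter, with 6 higher and 3 lower in KO, a median of 0.26 (-0.06 without KO replicate 2) and 0 past edgeR's test. Il13, the cytokine that expands tuft cells, had 0, 1 and 4 reads in KO replicates 1, 2 and 3, against 1, 1 and 0 reads in WT replicates 1, 2 and 3, and Il5 had 1, 1 and 1 reads in KO, against 0, 0 and 0 in WT. The epithelial alarmin Il33 had 18.1, 52.8 and 46.8 CPM in KO replicates 1, 2 and 3, against 42.1, 9.63 and 10.8 CPM in WT replicates 1, 2 and 3. Its 3 highest libraries were the Xist-high ones, whichever their label. Il17ra, a subunit of the receptor for interleukin 25, had 73.0, 68.6 and 66.3 CPM in KO, against 85.6, 86.9 and 89.2 CPM in WT, with no overlap and a log2 difference of -0.33 ± 0.07 (SE, adjusted p = 0.829 in edgeR's test).

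The epithelial, goblet, enteroendocrine and colonocyte lists were nearly level beside the tuft genes, and the crypt stem list was not. In the epithelial list 8 of 11 genes were higher in KO (median log2 difference 0.03, and -0.01 when scaled to that list), in the goblet list 5 of 6 (median 0.05), the enteroendocrine list 1 of 6 with -0.10 and the colonocyte list 2 of 6 with -0.10. All 11 epithelial, 6 goblet and 6 colonocyte genes averaged more than 0.3 reads per exon base, as did 5 of 8 smooth muscle and 2 of 6 enteroendocrine genes. Itpr3 of the taste signalling list (0.343) and Il13ra1 of the type 2 circuit list (0.353) did so too. The highest gene of any library reached 0.973, so differences of these genes may be compressed by a ceiling on counts. The tuft genes averaged at most 0.102 reads per exon base. Crypt stem genes, which are also epithelial, had 6 of 6 higher with a median of 0.56. Among them Lgr5 differed by 1.68 ± 0.60 and Prox1 by 2.12 ± 0.84 (SE, log2), more than any tested gene of the tuft set. Neuron and glia genes had 0 of 10 higher with -0.59 and smooth muscle genes 0 of 8 with -0.18. Mast cell and basophil genes had 4 of 6 higher with 0.33, megakaryocyte and platelet genes 0 of 3 tested with -0.05, leukocyte genes 4 of 6 with 0.03 (-0.02 when scaled to the epithelial list), and squamous and skeletal genes 0 of 4 tested with -1.35. EdgeR's test called 0 genes of these 11 lists, and DESeq2 called Acta1 (adjusted p = 1.7e-05).

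**Figure D4:**
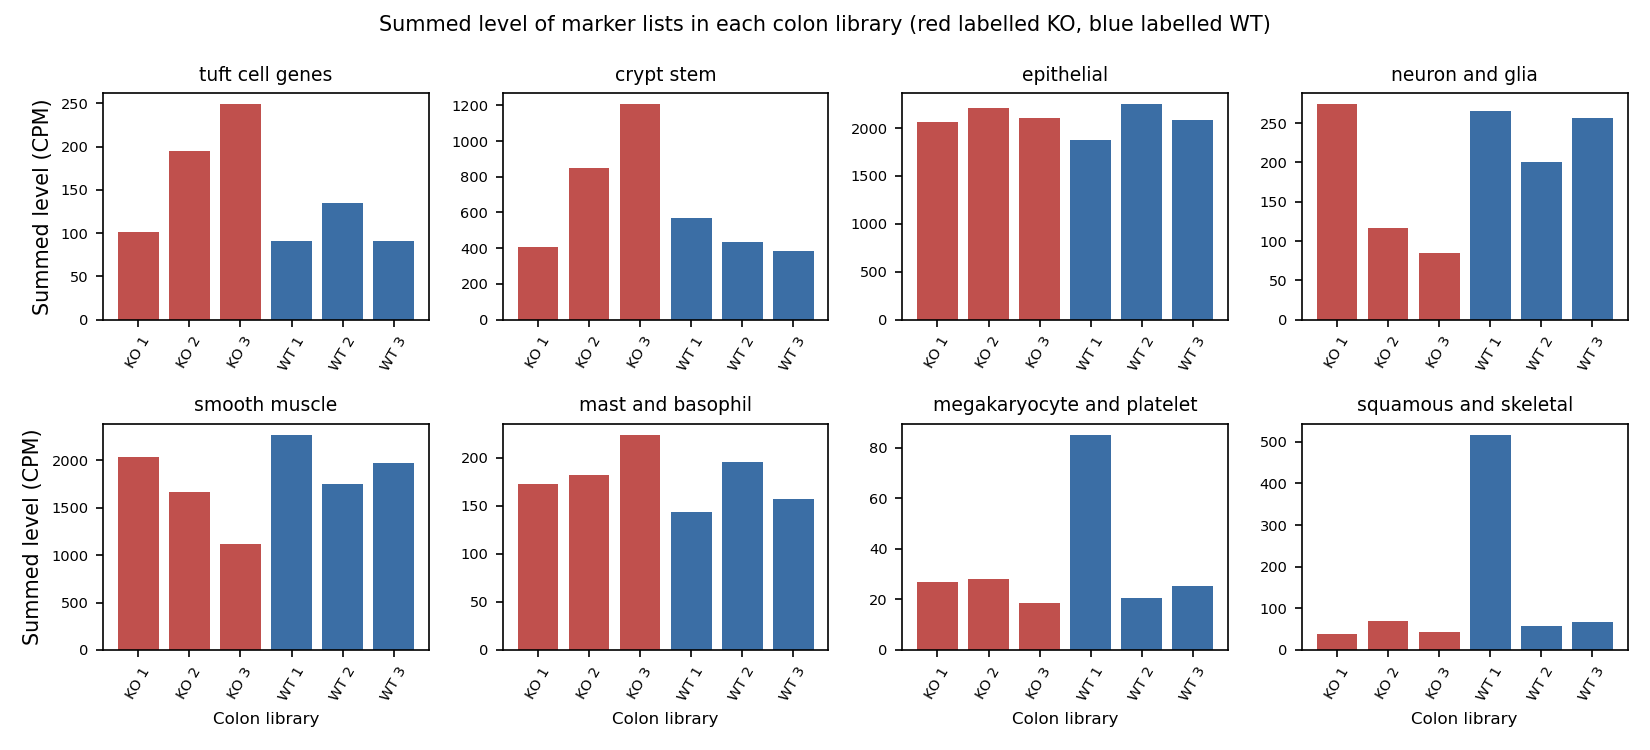
Summed level (CPM, bars from 0, own scale in each panel) of the tuft cell genes and of 7 marker lists in each colon library, KO in red at the left and WT in blue at the right. The tuft sum (249 CPM) and the crypt stem sum (1206 CPM) peak in KO replicate 3, where the neuron and glia sum is lowest (85.1 CPM), and squamous and skeletal markers stand at 517 CPM in WT replicate 1.

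Scaled to the summed reads of the epithelial list in place of the whole library, the 6 libraries ranked in the same order as by CPM for Trpm5, Pou2f3, Sh2d6, Gnat3 and Avil, while WT replicates 1 and 3 changed places for Dclk1 and KO replicate 2 and WT replicate 2 for Gfi1b. Trpm5 had 76.8, 144 and 202 reads per 10000 epithelial reads in KO replicates 1, 2 and 3, against 38.4, 133 and 71.3 in WT replicates 1, 2 and 3. Sh2d6 had 27.9, 79.1 and 71.6 per 10000 in KO, against 13.8, 38.7 and 23.4 per 10000 in WT. On this scale the log2 differences were 0.30 for Dclk1, 0.80 for Trpm5, 0.97 for Pou2f3, 1.23 for Sh2d6, 1.15 for Gnat3 and 1.19 for Avil, and none passed edgeR's test (adjusted p = 0.911 for each). Counts of the epithelial list may be compressed by the ceiling described above. This scaling may therefore follow the epithelial content of a library only in part, and the unchanged order does not show that such content was equal.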

How the data were processed

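Read counts per gene were analysed from 6 colon RNA sequencing libraries, 3 labelled KO and 3 labelled WT, grouped by sample title. The deposited counts are whole numbers per Ensembl gene with no normalisation, per the file headers. The submitters' processing notes list DESeq2, HTSeq, RSEM, STAR and TopHat2, and the builds GRCm38 and mm10, without roles or versions, and filters and strand settings were not given in the sources used here. The labels name no molecular identifiers, and whether copies of a molecule were removed was not stated. Among genes past a minimum length, none exceeded 0.973 reads per exon base in any library, and what set that ceiling was not tested. A chi-square comparison of replicate counts gave at least 5.58 per degree of freedom for each pair, so none is a duplicate.

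The filter was filterByExpr (about 1.30 CPM in 3 libraries) and the scaling TMM; the test was that of edgeR 4.0.16 in R 4.3.3 (robust quasi-likelihood F test, Benjamini-Hochberg over 17195 genes, threshold 0.05). SE is the log2 fold divided by the square root of F. CPM are TMM-scaled. Exon lengths and positions come from GENCODE vM21 on GRCm38, which held 30212 of 30263 IDs (99.8%). The test was checked on simulated data. DESeq2 1.42.0 and limma 3.58.1 (voom with quality weights) were alternatives, beside other scalings, filters, the replicate number as a block, Xist status as a covariate and each library left out.

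The 7 genes and the 16 lists, with the rule for named genes, were chosen with earlier results of these data known. The rule names the 7 genes, S1pr4, Xist, Ddx3y and genes of the tuft and type 2 lists. It also names the 3 genes of smallest p of other lists and the 3 nearest profiles of each tested gene. A gene outside it is marked in the text, except Tsfm and Tssc4, which were named because they overlap Avil and Trpm5. Counts within Xist-high or Y-linked libraries were added after seeing the data. A further gene was dropped from the list of other tuft markers and enters none of its counts.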

Additional observations from a re-analysis of the deposited data

How the results depend on the processing

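The 6 tested genes kept a positive log2 difference in every alternative fit that gave them a value. None passed edgeR's, DESeq2's or limma-voom's threshold in those fits. Within the Y-linked libraries, where no fit was run, Trpm5, Pou2f3, Sh2d6, Gnat3 and Avil were lower in KO. Leaving out a library in turn gave 0.18 to 0.44 for Dclk1, 0.44 to 1.44 for Trpm5, 0.75 to 1.27 for Pou2f3, 0.92 to 1.77 for Sh2d6, 0.69 to 2.14 for Gnat3 and 0.80 to 1.71 for Avil. WT replicate 1 and WT replicate 2 set the ends for Trpm5, Sh2d6 and Gnat3, KO replicate 3 and KO replicate 1 those for Avil. The mean log2 difference of the summed level was 0.72, and 0.46 to 1.09 when single libraries were left out. With Xist status as a covariate Avil stood at 0.46 ± 0.53 (SE), against 1.25 without it, and Trpm5 at 0.90 ± 0.82 (SE). The count of genes called over the whole table was 0 in edgeR under each scaling, filter and left-out library, and 18 with DESeq2. The cause was not tested. At an unadjusted p under 0.05 edgeR's main fit held 870 genes. Its other fits held from 307 (without WT replicate 3) to 3673 (without KO replicate 1).

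Members with a higher mean in KO numbered 7 of 7 with any single library left out and 2 of 7 within the Y-linked libraries, where KO is 1 library. The replicate block called 0 genes and gave 0.91 for Trpm5, 1.26 for Sh2d6 and 1.003 for Avil (adjusted p = 0.694 to 0.730 in edgeR's test); the labels do not say that the numbers pair libraries, and same-numbered KO and WT libraries correlated at -0.04, 0.21 and -0.23 in their deviations from group means. With a mean of at least 50 counts, Pou2f3 and Gnat3 gave no value. List medians that crossed 0 when a library was left out were those of taste signalling (-0.10 without KO replicate 1), mediators (0.15 without KO replicate 3), the type 2 circuit (-0.06 without KO replicate 2), epithelial (-0.02) and goblet genes (-0.02), and megakaryocyte genes (0.09), these 3 without WT replicate 1, and leukocyte genes (-0.15 without KO replicate 1), and the mediator median lay near 0 and crossed it under other settings too. The squamous and skeletal median was -0.25 without WT replicate 1, the neuron and glia median -1.24 leaving out KO replicate 1, or -0.26 leaving out KO replicate 3, and without KO replicate 3 the crypt stem median was 0.27 and the mast cell and basophil median 0.05. Gfi1b, Gnat3 and Pou2f3 are limited by depth, at 3 to 74 reads a library.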
